A study of Homo sapiens with 4 samples.

Results

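The mitochondrial ribosomal proteins were examined in human liver cancer cells after knockdown of UBXN1. The members were all protein-coding genes of the deposited table whose symbol starts with MRPL or MRPS followed by a number, which gave 78 of 61541 genes. By their published places in the human mitochondrial ribosome, 51 of them encode proteins of the large subunit and 26 encode proteins of the small subunit. The remaining gene, MRPS36, carries the name of the family but encodes a subunit of the alpha-ketoglutarate dehydrogenase complex. MRPS18A and MRPS30 are named after the small subunit and were counted with the large subunit, in which their proteins lie.

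Mitochondrial ribosomes translate the few mRNAs of the mitochondrial genome, all of which encode core subunits of the respiratory chain and ATP synthase. Their rRNAs are transcribed from mitochondrial DNA, while every protein of both subunits is encoded in the nucleus, made in the cytosol and imported. Some of these proteins descend from bacterial ribosomal proteins and others are found only in mitochondrial ribosomes.

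The samples were MHCC97H cells, an established human hepatocellular carcinoma (HCC) line, carrying either a control shRNA (shCon, 2 libraries) or an shRNA against UBXN1 (shUBXN1, 2 libraries), and mRNA was sequenced. UBXN1 encodes a UBX-domain protein that binds ubiquitin and the ATPase VCP. By the methods of the study, shRNAs were delivered with pLKO.1 lentivirus. The methods call the control shRFP where the labels have shCon, they do not say which UBXN1 shRNA the sequenced cells carried, and it is not stated that replicates came from separate cultures, so p-values measure the spread between these libraries. The comparison asks how the transcriptome of the line differed when UBXN1 was low.

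Library totals ran from 23373700 to 27380508 expected counts. UBXN1 itself stood at 67.1 and 77.3 CPM (counts scaled to library size with TMM) in shCon and at 16.8 and 18.5 CPM in shUBXN1, which left a log2 fold change of -2.03 (adjusted p = 9.98e-10). All 9 markers of hepatocytes and HCC that were examined, such as KRT18, HNF4A and AFP, reached 1 TPM (a level scaled to gene length and library size) in shCon, and 7 of 9 did in shUBXN1, where TTR and APOB stayed under 1 TPM. Some of these markers were lower in shUBXN1, such as ALB (16 and 14.8 against 3.99 and 4.21 TPM) and KRT8 (4047 and 4059 against 2993 and 3239 TPM). Others were higher there, namely KRT18 (1283 and 1320 against 1595 and 1767 TPM) and SERPINA1 (10.3 and 10.9 against 14.5 and 14.6 TPM). Of 10 markers of other cell types, 1 or 2 reached 1 TPM in each library, their summed level was 13.1 and 12.2 TPM in shCon and 16.7 and 14.8 TPM in shUBXN1, most of it PECAM1, and CD3E was at 0 in every library. The part of either marker list in the results was not tested. In these bulk libraries, a smaller number of cells of a kind and less RNA per cell cannot be told apart.

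The mRNAs of the mitochondrial ribosome were lower in shUBXN1 cells in most cases. Of the 78 members, 54 (69.2%) were called lower and 2 were called higher at a Benjamini-Hochberg adjusted p under 0.05 in edgeR's quasi-likelihood test, and 22 did not pass. Over all 16863 genes tested, 28.2% were called lower and 28.0% higher. Over the protein-coding genes tested, these shares were 32.2% and 29.7%. Without shCon replicate 1 or without shCon replicate 2 the only member called higher was MRPL34, and without shUBXN1 replicate 1 there were 4. All 78 members passed the filter on low counts, with 97 to 5179 counts per library. Their median log2 fold change was -0.448, which is 73.3% of the control level, against 0.016 over all genes tested and -0.016 over all protein-coding genes tested. The quartiles of the members were -0.77 and -0.19, and the whole range ran from -1.35 to 0.65.

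The decrease was also seen in the members' pooled counts. Together they took 0.395% and 0.409% of all counts in the shCon libraries and 0.304% and 0.308% in the shUBXN1 libraries. Per length, their summed level was 6684 and 6814 TPM in shCon and 5174 and 5077 TPM in shUBXN1. Both shUBXN1 libraries were below both shCon libraries by these sums. Gene by gene, the CPM values of both shUBXN1 libraries lay below both shCon values for 64 members and above them for 5, while the groups overlapped for 9. Over all genes tested, 38.6% were apart in the lower direction and 39.4% in the higher direction.

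**Figure D1:**
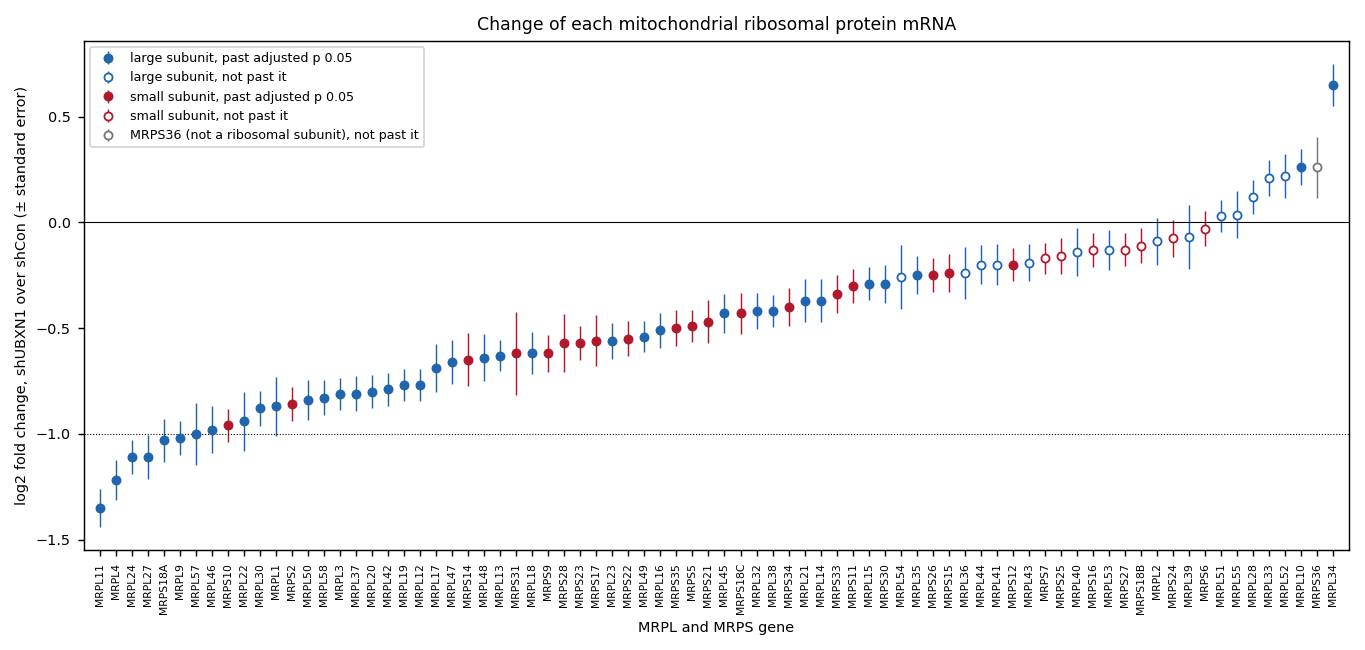
Log2 fold change of shUBXN1 over shCon for each of the 78 genes, ordered from the lowest to the highest, with bars for the standard error (2 libraries per group). Blue points are large subunit genes, red points small subunit genes and the grey point MRPS36, filled points passed an adjusted p of 0.05, and the dotted line marks a fall by 1. The points run from MRPL11 at -1.35 to MRPL34 at 0.65, and only 2 of the filled points lie above 0.

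Most decreases were moderate. At a fold change of 2 with an unadjusted p under 0.05, 6 members were lower and 0 were higher, with 6.09% of all genes tested lower and 11.8% higher by the same rule. All 6 belonged to the large subunit, which holds 51 of the 78 members, and MRPS10 of the small subunit missed the cutoff at -0.96. Of the 54 members called lower, 37 fell by at least 0.5 on the log2 scale. The members lie on 21 chromosomes. Only MRPL46 and MRPS11 have start sites within 10000 bases of each other, 63 bases apart on opposite strands of chromosome 15, and their log2 fold changes were -0.98 and -0.30.

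The promoters listed in RefSeq for GRCh38.p14 were searched for short motifs of factors known to act at housekeeping and mitochondrial genes. Whether any of these factors had a part in the changes was not tested. The windows ran from 250 bases before to 50 bases after each start site, and 69 of 78 members had 85 windows. MRPL13, MRPS28, MRPL23, MRPL21, MRPL15, MRPL35, MRPL2, MRPL10 and MRPS36 had no entry. Motifs were read on both strands, none contains another, and a match is a string of letters, not a shown binding site. The ETS motif CCGGAAG stood in 38.8% of member windows, against 10.3% of all 35116 windows and 16.1% of the windows of protein-coding genes tested. The YY1 motif, whose 10 letters are in capitals in the second set of stretches printed here, stood in 15.3% of member windows, against 1.2% and 2.27%. The NRF1 motif, whose 10 letters stand in capitals in the MRPL34 stretches as its reverse strand with any base allowed at position 6, stood in 11.8%, against 5.78% and 9.39%, the E-box CACGTG in 10.6%, against 7.26% and 9.16%, and the CCAAT box in 32.9%, against 34.6% and 34.5%.

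The ETS and YY1 motifs were found both in members called lower and in members that were not called. The ETS motif was present in 21 of 48 members called lower and in 9 of 20 not called, and the YY1 motif in 9 of 48 and 4 of 20. The NRF1 motif was present in 7 of 48 and 1 of 20, the E-box in 8 of 48 and 1 of 20, and the CCAAT box in 19 of 48 and 4 of 20, and these differences were not tested. The following stretches, chosen after the values were seen, show the ETS motif in capitals in 3 members called lower and in 2 that were not called, MRPL51 and MRPL33. Under other settings, MRPL33 was called higher in 8 of 16 refits and MRPL51 under cyclic loess.
MRPL27 (lower), chr17:50373218-50373247, minus strand: ccacgcagggcCCGGAAGtagatctcctga
MRPS18A (lower), chr6:43687804-43687833, minus strand: ggcgctacgttCCGGAAGcggaaatggacg
MRPL3 (lower), chr3:131502985-131503014, minus strand: tgtaaaacgcaCCGGAAGtgggtccggcgg
MRPL51 (not called), chr12:6493348-6493377, minus strand: cggcaggcggaCCGGAAGcactgaggcggg
MRPL33 (not called), chr2:27771700-27771729, plus strand: cgggccgtgccCCGGAAGcagttgttgttg

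The letters of the YY1 motif are in capitals in the next stretches, which were also chosen after the values were seen. In MRPS18A and MRPS10 it began at base 10 from the start site and in MRPL46 at base 9. In the uncalled MRPS24 and MRPS18B it began at bases 20 and 24. Other members called lower spanned both positions, such as MRPL38 at base 7, MRPS30 at 14, MRPL50 at 24 and MRPL22 at 36. In other members the match lay further out, such as at -224 in MRPL32 (lower) and at -98 in MRPL52 (not called).
MRPS18A (lower), chr6:43687763-43687792, minus strand: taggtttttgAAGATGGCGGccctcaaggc
MRPS10 (lower), chr6:42217833-42217862, minus strand: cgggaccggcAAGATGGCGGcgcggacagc
MRPL46 (lower), chr15:88467361-88467390, minus strand: gggagaacgaAAGATGGCGGcgcccgtaag
MRPS24 (not called), chr7:43869479-43869508, minus strand: cgcttggcccAAGATGGCGGcctccgtgtg
MRPS18B (not called), chr6:30617853-30617882, plus strand: ggcgtacgtcAAGATGGCGGcgtctgtatt

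Of the members at the extremes, MRPL11 (the largest decrease), MRPL24 and MRPL9 held no match to any of the 5 motifs in their windows. MRPL4 (the second largest decrease) held CCAAT boxes in its windows, and MRPL34 (the largest increase) held NRF1 motifs, with the reverse strand's letters in capitals.
MRPL4 (lower), chr19:10251914-10251943, plus strand: cagagaggtctcATTGGctgaattcctgca
MRPL34 (higher), chr19:17305627-17305656, plus strand: aatgccttgtGCGCACGCGCttgctcagaa
MRPL34 (higher), chr19:17305727-17305756, plus strand: cgcctctgttGCGCAGGCGCagaactacaa

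In the large subunit, 35 of 51 members were called lower and 2 higher, beside the 28.2% and 28.0% of all genes tested. The median log2 fold change of the large subunit members was -0.543. Of the 31 large subunit genes with a bacterial counterpart, 24 were called lower (median -0.629), and of the 20 that are specific to mitochondria, 11 were (median -0.354). In the small subunit, 19 of 26 members were called lower and 0 higher, with a median of -0.414. There, 12 of 17 genes with a bacterial counterpart and 7 of 9 specific ones were called lower, with medians of -0.426 and -0.401. All 26 small subunit genes had a log2 fold change below 0, although MRPS24 and MRPS6, neither of them called, turned above 0 under total count scaling and cyclic loess normalization. Without shCon replicate 2, 12 small subunit members were called lower. The differences between the subunits and between the classes were not tested.

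The largest decrease was that of MRPL11 (ENSG00000174547, chr11:66435075-66466738 on the minus strand of GRCh38), which encodes a protein at the base of the stalk that recruits translation factors. It stood at 48.6 and 47.6 CPM in shCon and at 18.0 and 19.8 CPM in shUBXN1. Both shUBXN1 libraries held well under the control level, with a log2 fold change of -1.35 ± 0.0900 (standard error) and an adjusted p of 2.31e-08, and 39.3% of the control level was left. It lay between -1.43 and -1.28 when each library was left out in turn.

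Among other genes of the stalk, MRPL12 fell and MRPL10 rose. MRPL12 (chr17:81703367-81707517), the stalk protein itself, was at 163 and 169 CPM in shCon and at 93.6 and 102 CPM in shUBXN1 (log2 fold change -0.77 ± 0.0752, adjusted p = 9.49e-07). MRPL12 shares 69.5% of its exon bases with a gene on the same strand, ENSG00000262660, whose level rose from 20.7 and 20 CPM to 35.0 and 31.5 CPM (log2 fold change 0.71), so the division of reads between them is uncertain. MRPL10, which anchors the stalk to the ribosome, was at 37.5 and 37.0 CPM in shCon and at 42.1 and 47.0 CPM in shUBXN1. Its rise of 0.26 on the log2 scale (standard error 0.0850, adjusted p = 0.0186) was small, and it did not pass in DESeq2 or without shCon replicate 1, shCon replicate 2 or shUBXN1 replicate 2.

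Of genes for proteins around the tunnel through which the new chain leaves the ribosome, 4 were picked by role after their values were seen, and they stand for no larger group. MRPL4 (ENSG00000105364, chr19:10251901-10260055) was at 55.5 and 64.2 CPM in shCon and at 24.4 and 27 CPM in shUBXN1 (log2 fold change -1.22, standard error 0.0941, adjusted p = 9.14e-08). MRPL24 (chr1:156737303-156741590) was at 160 and 180 CPM in shCon against 77.1 and 80.0 CPM in shUBXN1 (log2 fold change -1.11, adjusted p = 4.38e-08). MRPL22 was at 14.0 and 16.7 against 7.64 and 8.29 CPM, and MRPL23 at 41.8 and 40.8 against 27.1 and 29.0 CPM. In these 4 genes the groups did not overlap, and the log2 fold changes of MRPL22 and MRPL23 were -0.94 and -0.56. MRPL45, which helps to hold the ribosome at the inner membrane near the tunnel exit, fell by 0.43 on the log2 scale (36.3 and 40.2 against 27.2 and 29.6 CPM, adjusted p = 0.0012).

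The next genes encode proteins near the centre where peptide bonds form and were picked in the same way. MRPL27 (chr17:50367857-50373207), whose bacterial counterpart reaches into this centre, was at 35.1 and 32.4 CPM in shCon and at 14.8 and 16.5 CPM in shUBXN1 (log2 fold change -1.11, standard error 0.103, adjusted p = 5.40e-07). MRPL3 was at 179 and 186 against 99.3 and 108 CPM (log2 fold change -0.81, adjusted p = 5.82e-07), and MRPL16 at 42.2 and 43.8 against 30.1 and 30.4 CPM (-0.51, adjusted p = 1.26e-04). For these genes the groups were well apart. MRPL2, another conserved protein of the centre, was at 18.5 and 18.4 CPM in shCon and at 16.2 and 18.5 CPM in shUBXN1, so that its groups overlapped and it was not called (adjusted p = 0.514).

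The other large subunit genes among the 8 lowest were MRPS18A, MRPL9, MRPL57 and MRPL46. MRPL9 (chr1:151759647-151763496), with a bacterial counterpart, was at 111 and 120 CPM in shCon and at 54.2 and 59.6 CPM in shUBXN1 (log2 fold change -1.02, standard error 0.0797, adjusted p = 9.92e-08). MRPL57 (chr13:21176658-21179084), a protein found only in mitochondrial ribosomes, was at 13 and 15.5 against 7.48 and 6.75 CPM (log2 fold change -1.0, standard error 0.147, adjusted p = 4.78e-05). MRPL46 (chr15:88459477-88467390), also specific to mitochondria, was at 23.3 and 22.3 against 12.1 and 11 CPM (log2 fold change -0.98, standard error 0.113, adjusted p = 4.56e-06). MRPL58, a peptidyl-tRNA hydrolase that was built into the large subunit, was at 49.5 and 52.4 against 28.3 and 29.0 CPM (log2 fold change -0.83, adjusted p = 1.11e-06). For each of these genes both shUBXN1 libraries lay far below both shCon libraries.

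The 3 genes descended from the bacterial S18 protein differed in size of change. MRPS18A (ENSG00000096080, chr6:43671202-43687791), the paralog in the large subunit, was at 28.8 and 29.0 CPM in shCon and at 14.7 and 13.5 CPM in shUBXN1 (log2 fold change -1.03, standard error 0.102, adjusted p = 1.06e-06). MRPS18C, a small subunit paralog, was at 27.4 and 29.0 against 20.2 and 21.8 CPM (log2 fold change -0.43, standard error 0.0975, adjusted p = 0.00189). MRPS18B, the other small subunit paralog, was at 43.7 and 46.8 against 40.1 and 43.8 CPM, where the groups overlapped (log2 fold change -0.11, adjusted p = 0.284). Of the exon bases of MRPS18A, 50.9% lie opposite RSPH9, which was itself at no more than 0.596 CPM in any library. The differences between the paralogs were not tested.

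**Figure D2:**
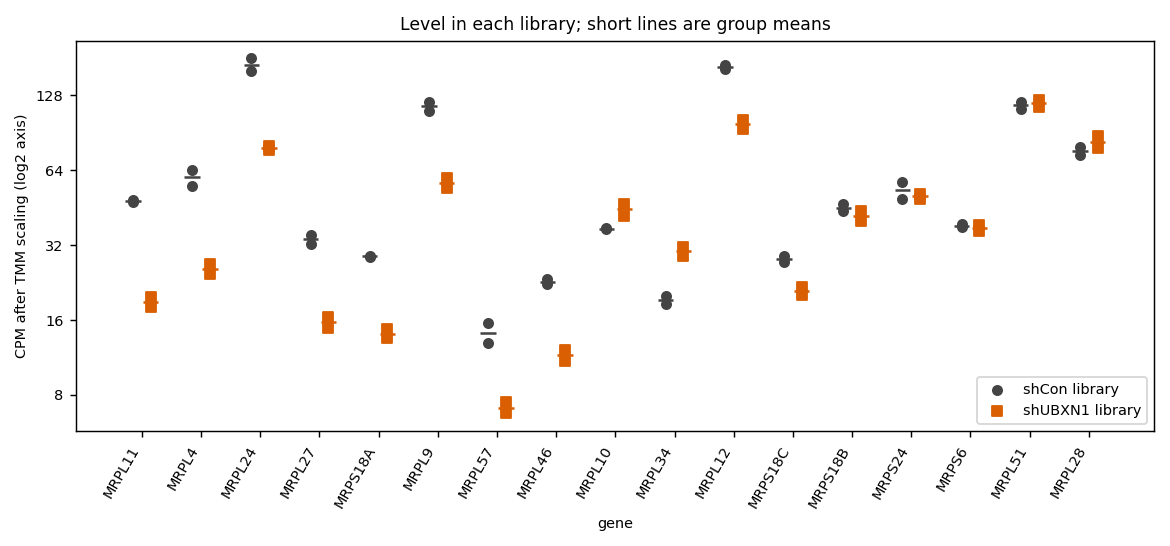
CPM after TMM scaling (log2 axis) in each library for the 8 genes called lower with the lowest fold changes, the 2 called higher, and 7 others named in the text, with grey circles for shCon, orange squares for shUBXN1 and short lines for the group means. From MRPL11 to MRPL46 the orange squares lie below the grey circles without overlap, MRPL34 shows the opposite order, and the symbols overlap for MRPL51, MRPS6, MRPS24, MRPS18B and MRPL28.

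The largest increase was that of MRPL34 (ENSG00000130312, chr19:17292609-17306843), the counterpart of a small protein of the bacterial large subunit. It was at 18.5 and 20 CPM in shCon and at 29.0 and 31.4 CPM in shUBXN1. It rose by 0.65 ± 0.0991 on the log2 scale (adjusted p = 6.29e-05), and it passed in all 16 refits under other settings. Of its exon bases, 14.6% lie opposite ABHD8, which was at 2.69 to 4.30 CPM and was not called. MRPL33 (30.6 and 33.0 against 37.3 and 36.0 CPM, adjusted p = 0.0571) and MRPL52 (19.5 and 18.6 against 23.3 and 21.1 CPM, adjusted p = 0.0878) also had both shUBXN1 libraries above both shCon libraries and did not pass. MRPL33 was, however, called higher in 8 of the 16 refits, among them total count scaling, cyclic loess and the replicate block, and MRPL52 in 2. MRPS36, the dehydrogenase subunit, was at 10.4 and 10.9 against 11.2 and 14.4 CPM (log2 fold change 0.26, adjusted p = 0.143).

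In the small subunit, the lowest was MRPS10 (chr6:42206807-42217861), at 67.3 and 70.8 CPM in shCon and at 34.9 and 35.9 CPM in shUBXN1 (log2 fold change -0.96, standard error 0.0780, adjusted p = 1.43e-07). MRPS2, like MRPS10 the counterpart of a bacterial small subunit protein, was at 67.4 and 73.6 against 38.3 and 39.6 CPM (-0.86, adjusted p = 5.95e-07). Their groups were well apart. MRPS12, whose bacterial counterpart lies at the decoding centre, was at 70.4 and 70.8 against 59.1 and 64.1 CPM (-0.20, adjusted p = 0.0394), and it lost its call under 8 of the 16 refits. MRPS7, of the small subunit head, was at 152 and 152 against 131 and 138 CPM (-0.17) and did not pass (adjusted p = 0.0543), but it was called lower in 5 refits, among them limma-voom with TMM and the replicate block. MRPS6 (37.7 and 39.0 against 38.4 and 36.6 CPM) and MRPS24 (49.0 and 57.2 against 49.1 and 51.6 CPM) had overlapping groups.

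MRPS22 was at 47.1 and 50.6 CPM in shCon and at 33.7 and 33.2 CPM in shUBXN1 (log2 fold change -0.55, adjusted p = 5.88e-05). Antisense genes together lie opposite 42.8% of its exon bases. Of these, COPB2 was more abundant than MRPS22 and also lower (273 and 280 against 221 and 235 CPM). The others, ENSG00000272656 and PRR23A, were at 0 CPM in every library. Whether strand was used in the counting is not stated. In all, 17 members share more than 10% of their exon bases with an antisense gene and 14 with a gene on the same strand. Among the 49 members with neither, 35 were called lower and 1 higher, beside the 28.2% and 28.0% of all genes tested. Their median log2 fold change was -0.42. Pseudogenes named after MRP genes, 79 in the table, held only 26.5 to 57.88 counts per library in sum, which is 0.0371% to 0.0805% of the members' own counts.

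The 22 members that did not pass included 16 with a log2 fold change below 0 and 6 above. MRPL51, a protein specific to mitochondria and one of the 3 members of highest level, was at 113 and 120 CPM in shCon and at 115 and 123 CPM in shUBXN1, with a log2 fold change of 0.031 ± 0.0749 and an adjusted p of 0.750. Its antisense neighbour NCAPD2, which overlaps 27.6% of its exon bases, was at 219 and 230 against 129 and 136 CPM. MRPL28 (73.4 and 79.0 against 78.4 and 87.5 CPM, log2 fold change 0.12) was not called either. Under other settings, however, MRPL51 was called higher with cyclic loess, and MRPL28 with total count scaling, cyclic loess and log2(TPM + 1). MRPL53 (25.5 and 26.2 against 23.9 and 23.4 CPM, -0.13) shares 72.8% of its exon bases with CCDC142 on the same strand, which rose from 16.8 and 17.0 CPM to 38.4 and 35.2 CPM.

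Per length, the mean levels of the members ran from 7.37 to 286 TPM. Of 78, 63 had a mean level of 20 to 200 TPM over the 4 libraries. The highest were MRPL24 (286 TPM), MRPL51 (268 TPM) and MRPL12 (266 TPM), and the lowest were MRPS31 (7.37 TPM), MRPL57 (9.72 TPM) and MRPL19 (13 TPM). MRPL24 was the highest in shCon, at 386 ± 24.2 TPM (SD, n = 2), and fell to 186 ± 4.90 TPM in shUBXN1. There MRPL51 was the highest, at 277 ± 1.90 TPM against 260 ± 6.41 TPM in shCon. MRPL12 took 330 ± 1.60 TPM in shCon and 202 ± 1.10 TPM in shUBXN1. In shCon, MRPL42 (273 TPM) also lay above MRPL51.

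**Figure D3:**
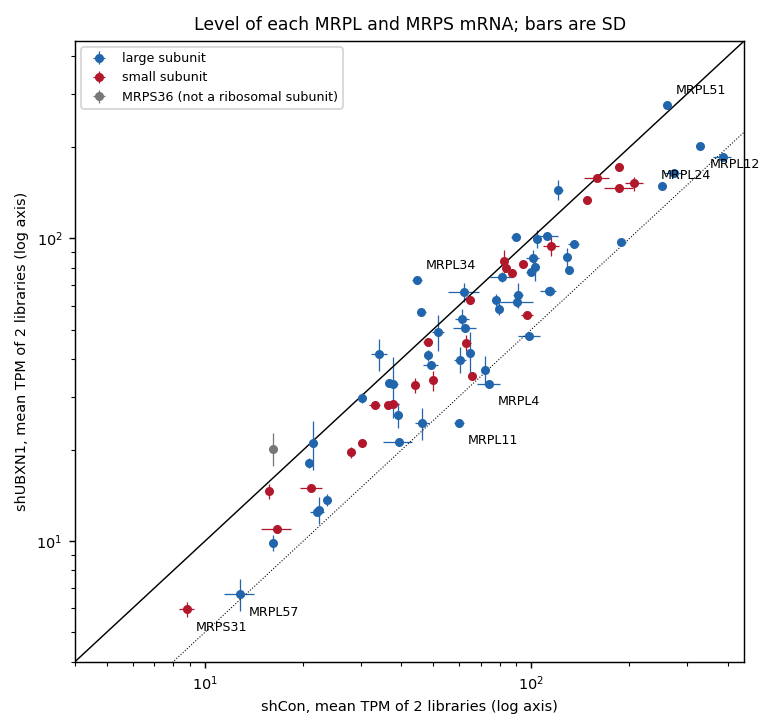
Mean TPM of the 2 shUBXN1 libraries against mean TPM of the 2 shCon libraries for each of the 78 genes (both axes logarithmic, bars are SD), with a solid line for equal levels and a dotted line for a fall by 2 times. Most points of both subunits lie between the lines, and MRPL11, MRPL4, MRPL24 and MRPL27 lie below the dotted one. MRPL34 lies above the solid one, as do several others, such as MRPL10 and MRPL33.

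Among members, the changes followed level, GC content and length only weakly. Across the 78 genes, which share the same 4 libraries, Spearman's rho of the log2 fold change was 0.106 with mean TPM, 0.188 with GC content and -0.186 with the deposited gene length. Over all genes tested, rho was -0.242, 0.13 and 0.0313. The members were shorter than the genes tested in general (median deposited length 1288 against 2810 bases), had a higher level (median 57.2 against 11.7 TPM) and a like GC content (47.9% against 48.1%). With the trend of fold change with length removed, the median of the members was -0.442, and with the trend with GC content removed it was -0.496.

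Of the 54 members called lower, 43 passed in each of 16 refits under other settings, 31 of the large and 12 of the small subunit. The other 11 (MRPS31, MRPS34, MRPL14, MRPS33, MRPS11, MRPL15, MRPS30, MRPL35, MRPS26, MRPS15 and MRPS12) lost their call in at least 1 refit, and 5 of them did so only when shCon replicate 2 was left out. MRPS30, which lies in the large subunit, was one of the 11 (39.3 and 39.9 against 30.3 and 34.6 CPM, log2 fold change -0.29, adjusted p = 0.0136). No called member changed direction in any refit.

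Of 5 proteins of the mitochondrial ribosome with other symbols, 4 were called lower and 0 higher, beside the 28.2% and 28.0% of all genes tested. AURKAIP1 lost its call in 6 of 16 refits and DAP3 in 2. PTCD3, a small subunit protein with pentatricopeptide repeats, was at 84.8 and 87.3 CPM in shCon and at 55.7 and 56.4 CPM in shUBXN1 (log2 fold change -0.62, adjusted p = 6.31e-06). GADD45GIP1 was at 48.6 and 49.4 against 33.3 and 32.9 CPM (-0.57, adjusted p = 3.23e-05). DAP3, a GTP-binding protein of the small subunit, was at 239 and 242 against 191 and 207 CPM (-0.27, adjusted p = 0.00695), and AURKAIP1 at 45.4 and 47.9 against 37.8 and 41.9 CPM (-0.23, adjusted p = 0.0318). CHCHD1 was at 18.0 and 17.7 against 15.5 and 14.4 CPM and missed the threshold (adjusted p = 0.0666).

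Of 30 factors that assemble the mitochondrial ribosome or modify its rRNA, 14 were called lower and 2 higher, beside the 28.2% and 28.0% of all genes tested. Their median log2 fold change was -0.239, with quartiles of -0.38 and -0.08, and their difference from the ribosomal proteins was not tested. MTG1, a GTPase of large subunit assembly, was at 33.2 and 35.4 CPM in shCon and at 17.0 and 16.7 CPM in shUBXN1 (log2 fold change -1.02, adjusted p = 6.05e-07). C1QBP, a matrix protein, was at 276 and 281 against 139 and 146 CPM (-0.97, adjusted p = 7.68e-08), and the rRNA methyltransferase MRM1 at 9.04 and 7.87 against 4.53 and 4.87 CPM (-0.85, adjusted p = 9.43e-04). Higher were NSUN4, an rRNA methyltransferase (22.7 and 20.6 against 32.9 and 29.3 CPM, 0.53, adjusted p = 4.67e-04), and the pseudouridine synthase RPUSD4 (29.1 and 30.2 against 35.7 and 40.2 CPM, 0.36, adjusted p = 0.00406). Without shUBXN1 replicate 1, 4 genes of this list were called higher.

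Of 16 factors of mitochondrial translation, 8 were called lower and 2 higher, with a median of -0.306, beside the 28.2% and 28.0% of all genes tested. TACO1, an activator of COX1 translation, was at 37.4 and 40.5 CPM in shCon and at 22.7 and 24.6 CPM in shUBXN1 (log2 fold change -0.72, adjusted p = 1.28e-05). SLIRP, an RNA-binding protein, was at 20.5 and 25.2 against 15 and 14.4 CPM (-0.63, adjusted p = 4.33e-04), and the initiation factor MTIF3 at 11.3 and 9.79 against 7.23 and 6.96 CPM (-0.57, adjusted p = 0.00547). The 2 higher genes were MTRFR, a release factor-like protein (27 and 29.9 against 37.1 and 34.4 CPM, 0.33, adjusted p = 0.00709), and OXA1L, which inserts new chains into the inner membrane (94.9 and 94.2 against 110 and 114 CPM, 0.24, adjusted p = 0.00945). Without shCon replicate 1, 0 genes of this list were called higher, and without shCon replicate 2 there was 1.

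The rRNAs of the mitochondrial ribosome went in opposite directions. MT-RNR1, the small subunit rRNA, was at 3769 and 3915 CPM in shCon and at 2050 and 2264 CPM in shUBXN1 (log2 fold change -0.83, standard error 0.0948, adjusted p = 4.20e-06). MT-RNR2, the large subunit rRNA, was at 4610 and 4522 against 7244 and 8779 CPM (0.81, standard error 0.111, adjusted p = 2.54e-05). Counts on the whole mitochondrial genome made up 5.28% and 5.59% of the shCon libraries and 7.43% and 8.27% of the shUBXN1 libraries, and with that genome left out 55 MRPL and MRPS members were called lower. The libraries were made from mRNA by the labels, so how fully they represent rRNA was not tested.

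The ribosomal proteins of the cytosol gave a reference for ribosomes in general. These genes were taken by their RPL and RPS symbols, and they include paralogs such as RPL7L1, RPL22L1 and RPL39L. Of 84 such genes, 82 were tested, 56 were called lower and 4 higher, with a median log2 fold change of -0.287. This is a share of 68.3%, near the 69.2% of the mitochondrial members, with a median closer to 0. Without shCon replicate 2, 31 of the cytosolic genes were called lower, against 43 of the 78 mitochondrial members, and the share of all genes tested that were called lower was then 20.9%. The cytosolic genes called higher numbered 2 without shCon replicate 1 and 2 without shCon replicate 2. Whether the 2 families differ was not tested.

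**Figure D4:**
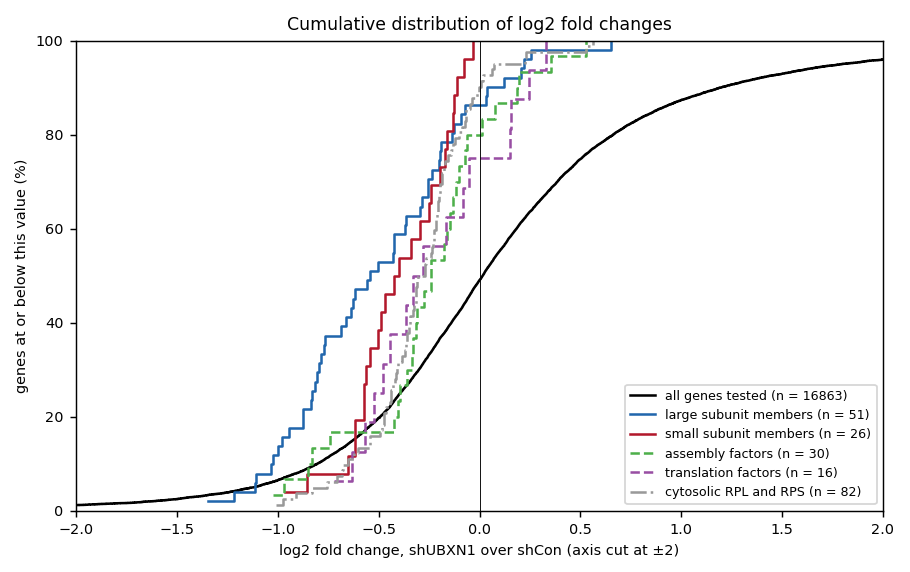
Percentage of genes at or below each log2 fold change of shUBXN1 over shCon for all 16863 genes tested (black), large (blue) and small (red) subunit members, assembly factors (green), translation factors (purple) and cytosolic ribosomal proteins (grey), with the axis cut at 2 in both directions. The large subunit curve lies furthest to the left through its middle, with a median of -0.543, the small subunit curve ends below 0 (MRPS24 and MRPS6 turned above 0 under total count scaling), and the curve of all genes crosses its middle at 0.016.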

How the data were processed

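RNA of MHCC97H cells was sequenced in 2 shCon and 2 shUBXN1 libraries, grouped by their titles. The authors deposited expected counts per gene, not normalized, with a gene length. Their methods name Hisat2, GRCh38, TPM and limma, whereas the submitters' processing notes list HISAT2 2.0.4, StringTie 1.3.0 and GRCh37. The counting tool, annotation release and use of strand are not given in the sources used here, so genes that overlap another are uncertain, and reads divided between genes give values that are not whole. The methods and the labels name different mRNA library kits.

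Expected counts were rounded. In edgeR 4.0.16 (R 4.3.3), filterByExpr removed low genes, TMM set the scaling, and the quasi-likelihood fit and test had group as the only term. Adjusted p-values cover all 16863 genes tested. Standard errors are the log2 fold change over the square root of F. TPM was computed from the counts and the deposited lengths. Symbols and positions came from the GENCODE annotation of GRCh38 by gene ID (61369 of 61541 IDs matched). The method was also run on counts simulated from its own fitted levels and spread, which cannot show how it performs on the real libraries. Totals of 23373700 to 27380508 counts set the precision, and replicates differed by more than sampling noise (chi-square over its degrees of freedom 3.83 for the shCon pair, 8.42 for the shUBXN1 pair).

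Members and lists were chosen with earlier results of these data known. Values are given in full for the 8 lowest and 8 highest called members (only 2 were higher), the highest and lowest levels, the S18 paralogs, MRPS30, MRPS36, the 5 other ribosomal proteins and the 3 lowest and highest called genes of the assembly and translation lists. Other members were named for their roles after their values were seen. Alternatives were DESeq2 1.42.0, total count scaling, limma 3.58.1 (voom with TMM or cyclic loess, and log2(TPM + 1)), no filter or at least 10 counts in every library, unrounded counts, no mitochondrial genome, GC or length trend removed (loess span 0.3), a replicate block, a fold change of 2 with unadjusted p under 0.05, and leaving out each library.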

Additional observations from a re-analysis of the deposited data

How the results depend on the processing

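Over 16 refits of the 78 members, 1172 outcomes stayed on the same side of the threshold, 43 lost and 33 gained significance, and 0 called members reversed. With all 4 libraries, the number of members called lower was 49 (DESeq2) to 58 (GC trend removed). Of all genes tested, 24.4% and 28.9% were called lower under these settings. It was smaller still without shCon replicate 2 and larger without shUBXN1 replicate 2, where a group holds a single library. The number called higher was 1 in DESeq2, 5 under total count scaling, 5 under cyclic loess and 4 on log2(TPM + 1), all of the large subunit. Of all genes tested, 22.8%, 31.6%, 27.7% and 28.1% were called higher under the same settings. The number called higher also moved with single libraries left out. Small subunit members called lower numbered 12 to 22 with single libraries left out. At a fold change of 2, 6 members were lower and 0 higher, beside 6.09% and 11.8% of all genes tested. All 6 were of the large subunit, and MRPS10 of the small subunit missed the cutoff at -0.96. By that rule 1 assembly factor, 0 translation factors and 1 cytosolic ribosomal protein gene were lower and 0 were higher. Assembly factors called higher were 4 under total count scaling and 2 to 4 with single libraries left out, and translation factors called higher were 3 and 0 to 2 under the same settings. Cytosolic ribosomal protein genes called lower were 31 to 66 with single libraries left out, and those called higher were 2 to 4, 10 under cyclic loess and 2 with the GC trend removed.

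The members' median was -0.363 under total count scaling, which moved the median of all genes to 0.101, -0.383 under cyclic loess, -0.379 on log2(TPM + 1), and -0.504 to -0.433 with single libraries left out. The signs of 6 uncalled members (MRPS24, MRPL39, MRPS6, MRPL51, MRPL55 and MRPL28) changed in at least 1 refit. The cause of these shifts was not tested. Same-numbered libraries share only a number (correlation of their deviations 0.0393), and with a replicate block 55 members were called lower and 3 higher. With 2 libraries per group the spread rests largely on information shared across genes, and members of few counts, such as MRPS31, have wide standard errors (0.198).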
